A study of Homo sapiens with 9 samples.

Results

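The genes described here are 49 genes of DNA replication and of the passage from G1 into S phase, out of 78894 gene identifiers in each library. They were chosen as a named list with roles in licensing, unwinding and copying DNA, in supplying nucleotides, in driving the G1/S step and in rebuilding chromatin. The cells were CAL27, an established line derived from a tongue squamous carcinoma, and their RNA was sequenced. An enhancer in head and neck cancer is the subject of the series, which sets CRISPR-edited cells beside control cells: 3 samples named Control and 2 samples each named A2ko, A8ko and C9ko. All groups were grown in DMEM with 10% FBS and received no treatment, and polyA RNA was sequenced. Neither the edited sequence nor the allele is named in the labels, nor whether a group came from a clone or a pool, so no target gene could be checked. Both A2ko samples held the same values for all 78894 identifiers, and so did both A8ko samples, so each pair was counted as 1 library. Of the 7 distinct libraries, 3 were Control, 2 were C9ko, and A2ko and A8ko had 1 each.

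Before a cell divides, the origin recognition complex, CDC6 and CDT1 load the ring-shaped MCM helicase onto DNA in G1. At the start of S phase, CDC45 and the GINS complex join the MCM ring and turn it into an active helicase, and primase, the DNA polymerases and the sliding clamp PCNA then copy both strands. Many of these genes are transcribed in a wave at the G1/S border by E2F factors, which are held back by the retinoblastoma protein until cyclin-dependent kinases inactivate it. Squamous carcinomas of the head and neck often carry lesions in this control.

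Values are TPM, a share of each library scaled by transcript length. TPM keeps no record of read depth, so the depth of the libraries is unknown. Differences are given as log2(TPM + 1) in a knockout minus the mean of the 3 Control libraries, a scale that understates the change of weakly expressed genes. A gene was tested when it reached 1 TPM in at least 2 distinct libraries, which held for 17100 genes and for all 49 members. Only C9ko had replicates to test, with limma and Benjamini-Hochberg adjustment over the 17100 genes at a threshold of 0.05. Nothing in the labels says that replicates came from separate cultures, so its p-values measure only the spread between these samples. For A2ko and A8ko there is no replicate and no p-value. There, genes were counted that lay above or below every Control library, and "past the fold" means also at least 0.5 log2 units from the Control mean. All 3 comparisons use the same Control libraries, so they are not independent of one another.

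Each library had 15556 to 16716 genes at 1 TPM or more. Mitochondrial transcripts held 23.1% to 26.9% of the Control TPM, 25.2% for A2ko, 20.6% for A8ko, and 17.9% and 20.2% for the C9ko libraries. The median difference of all tested genes from Control was 0.12 for A2ko, 0.09 for A8ko and 0.11 for C9ko. Scaling by the median of ratios moved these medians to 0.00495, 0.00311 and -0.00529. List medians are therefore also given relative to all tested genes. The 10 squamous epithelial markers were all tested, and their summed TPM was 15657 to 16779 in Control, 6919 for A2ko, 8082 for A8ko, and 10416 and 10256 for the C9ko libraries. KRT14, a keratin of basal squamous cells, was at 3549, 3796 and 4286 TPM in Control, 313 for A2ko, 867 for A8ko, and 1283 and 1247 for the C9ko libraries. The desmosomal cadherin DSG3 was at 34.7 to 39.0 TPM in Control and at 11.3 to 21.9 TPM in the 4 knockout libraries. Not all 10 markers fell: 7 were lower and 3 higher in A2ko, 6 and 4 in A8ko, and 5 and 5 in C9ko. Their median differences were -0.38, -0.14 and 0.06. CDH1 was among the higher ones, at 0.41, 0.44 and 0.74. The summed markers of fibroblasts lay between 7.36 and 17.7 TPM, those of endothelium between 3.62 and 30.3 TPM and those of leukocytes between 14.6 and 52.8 TPM. The higher endothelial and leukocyte sums came nearly all from CDH5 and CD14, while PECAM1 was at most 0.295 TPM, PTPRC at most 0.0232 TPM and COL3A1 at 0 in every library. The part of the squamous marker levels and of the mitochondrial share in the results below was not tested.

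The 5 members whose promoters are shown were picked by name, with no set rule on their values. Even so, PCNA, RRM2 and TYMS are among the 5 members past the fold in C9ko. E2F1, RRM2 and TYMS are among the 10 past the fold in A8ko. The promoters below belong to MCM7, the most abundant MCM subunit, E2F1, PCNA, RRM2 and TYMS. They come from RefSeq on GRCh38.p14 and run from 250 bases before to 50 bases after a transcription start, 5′ to 3′ on the strand of the gene. MCM7 lies at chr7:100101348-100101647 on the minus strand, E2F1 at chr20:33686336-33686635 on the minus strand, PCNA at chr20:5126573-5126872 on the minus strand, RRM2 at chr2:10122489-10122788 on the plus strand and TYMS at chr18:657403-657702 on the plus strand. MCM7 is 1 of 3 promoters listed for its gene, and PCNA and RRM2 are 1 of 2 each. Where a gene had several, the window with the most E2F and CCAAT matches together was picked, so its counts are the highest for that gene. Capitals mark matches, on either strand, to the E2F motifs TTTCGCGC, TTTGGCGC and TTTCCCGC and to the CCAAT box, the motif of the NF-Y factor.
MCM7: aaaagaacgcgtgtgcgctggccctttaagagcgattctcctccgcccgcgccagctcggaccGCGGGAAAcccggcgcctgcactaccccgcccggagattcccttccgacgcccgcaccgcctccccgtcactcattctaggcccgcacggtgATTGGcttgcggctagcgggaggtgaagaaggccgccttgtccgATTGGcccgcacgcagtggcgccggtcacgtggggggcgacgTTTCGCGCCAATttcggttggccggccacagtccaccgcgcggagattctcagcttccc
E2F1: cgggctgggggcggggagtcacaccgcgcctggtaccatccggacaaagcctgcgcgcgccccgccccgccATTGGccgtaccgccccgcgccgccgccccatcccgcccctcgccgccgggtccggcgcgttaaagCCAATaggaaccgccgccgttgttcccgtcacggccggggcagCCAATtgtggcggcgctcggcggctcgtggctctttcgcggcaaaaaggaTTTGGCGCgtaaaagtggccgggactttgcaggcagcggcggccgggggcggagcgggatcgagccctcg
PCNA: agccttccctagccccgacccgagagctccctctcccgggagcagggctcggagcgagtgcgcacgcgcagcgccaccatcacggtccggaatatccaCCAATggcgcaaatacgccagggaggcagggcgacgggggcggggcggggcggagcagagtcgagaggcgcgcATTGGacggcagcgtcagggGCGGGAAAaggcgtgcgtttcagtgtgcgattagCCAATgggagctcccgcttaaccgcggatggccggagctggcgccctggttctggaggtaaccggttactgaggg
RRM2: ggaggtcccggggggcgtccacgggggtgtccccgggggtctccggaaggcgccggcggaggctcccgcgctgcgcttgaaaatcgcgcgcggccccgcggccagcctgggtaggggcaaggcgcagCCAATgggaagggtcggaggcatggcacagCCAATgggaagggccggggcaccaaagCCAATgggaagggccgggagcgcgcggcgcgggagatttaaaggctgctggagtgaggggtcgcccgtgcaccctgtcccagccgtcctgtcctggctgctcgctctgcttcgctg
TYMS: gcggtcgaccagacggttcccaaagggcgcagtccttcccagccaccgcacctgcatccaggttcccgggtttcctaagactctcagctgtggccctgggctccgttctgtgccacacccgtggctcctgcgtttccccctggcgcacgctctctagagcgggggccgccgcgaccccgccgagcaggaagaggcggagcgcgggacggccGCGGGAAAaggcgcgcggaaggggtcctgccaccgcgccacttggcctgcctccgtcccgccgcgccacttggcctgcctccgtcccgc
The MCM7 window holds 2 E2F matches and 3 CCAAT boxes, of which 1 pair overlaps, and the E2F1 window holds 1 E2F match, of its own family, and 3 CCAAT boxes. In PCNA the count was 1 and 3, in RRM2 0 and 3, and in TYMS 1 and 0. A match is a string of letters and not a measured binding site.

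A promoter was listed for 43 of the 49 members, and 25 of those 43 (58.1%) held at least 1 E2F match in any promoter listed for the gene. RPA3, MCM4, CCNE2, MCM5, GINS4 and RPA2 had no entry. Among all 27305 genes with promoters of the same length the share was 3.30%, and among the 10963 tested genes with a promoter it was 5.58%. By motif, 16.3% of the 43 members held TTTCGCGC in any listed promoter, against 1.19% of the tested genes. For TTTGGCGC the shares were 25.6% and 1.30%, and for TTTCCCGC 27.9% and 3.25%. Over all genes in the table these shares were 0.630%, 0.795% and 1.98%. The CCAAT box was in 55.8% of the members, 42.8% of the tested genes and 39.7% of all genes. The 25 members with an E2F match and the 18 without had median differences of -0.11 and -0.20 in A2ko, 0.32 and 0.39 in A8ko, and 0.23 and 0.23 in C9ko. In C9ko, limma called 12 of the 25 and 8 of the 18 higher, against 22.0% of all tested genes.

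Set against Control, the replication genes were mostly lower in A2ko and mostly higher in A8ko and C9ko, by less than 1 log2 unit in every library mean. In bulk RNA, fewer cells in S phase and less RNA of a gene per cell cannot be told apart. In A2ko the median over the 49 members was -0.15, with 36 members negative, and 32 (65.3%) lay below every Control library and 8 (16.3%) above. Of all tested genes, 26.3% lay below and 50.4% above. Among genes with a mean TPM of at least 5 those shares were 29.3% and 49.1%. No member was past the fold in either direction, against 6.26% of all tested genes lower and 16.6% higher. MCM4, a helicase subunit, had the lowest difference at -0.49, and RPA3, a subunit of the single-strand binding protein RPA, the highest at 0.30. Relative to all tested genes the median was -0.26. With the median of ratios 38 members lay below every Control library and 4 above, against 37.9% and 38.9% of all tested genes.

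In A8ko the median was 0.35, with 44 members positive, and 43 (87.8%) lay above every Control library against 46.9% of all tested genes. Among genes with a mean TPM of at least 5 the share of all genes was 54.5%. Below every Control library were 4 members (8.16%), against 26.4% of all tested genes: TIPIN, RRM1, DUT and E2F2. Past the fold and higher were 10 members (20.4%), against 10.4% of all tested genes. These were MCM10, CDC45, PRIM1, CLSPN, RRM2, TYMS, CCNE1, CCNE2, E2F1 and CHAF1B. None was past the fold and lower, against 8.47% of all tested genes. Relative to all tested genes the median was 0.26. Scaling by the median of ratios left 3 members past the fold, and leaving out mitochondrial transcripts left 6.

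In C9ko the median was 0.20, with 45 members positive, and 37 (75.5%) lay above every Control library against 41.1% of all tested genes. Among genes with a mean TPM of at least 5 the share of all genes was 47.7%. E2F2 alone (2.04%) lay below, against 16.4% of all tested genes. With the median of ratios 35 members were positive, 22 lay above and 5 below, against 28.3% and 27.7% of all tested genes. By limma, 20 of the 49 members (40.8%) rose and none fell, against 22.0% of all tested genes called higher and 7.42% called lower. Among genes with a mean TPM of at least 5, 22 members (45.8%) were called higher, against 29.5% of all genes. Before adjustment limma gave 28 members a p under 0.05 on the higher side and 0 on the lower side, against 30.6% and 11.0% of all tested genes. Past the fold and higher were 5 members (10.2%), namely PCNA, RRM2, GINS1, CLSPN and TYMS, against 13.3% of all tested genes, and none was lower, against 5.94%. The share past the fold was thus below that of all tested genes, and the share called above it. Relative to all tested genes the median was 0.09. Scaling by the median of ratios lowered the count called to 11, and 22.4% of members against 15.4% of all genes were then called higher. The 9 calls lost were ORC6, MCM10, PRIM1, PRIM2, RFC3, FEN1, EXO1, DTL and CCNE1. Leaving out Control 2 lowered the count to 12. Leaving out either C9ko library lowered it to 9, in a fit that assumes the lone C9ko library to vary like the Control libraries.

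**Figure D1:**
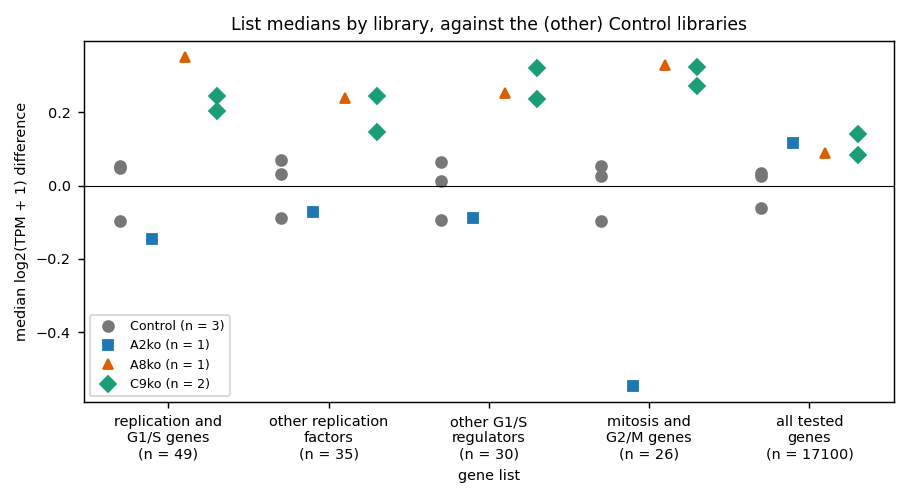
Median log2(TPM + 1) difference from Control (y axis) over the members of each list, 1 point per distinct library. Knockout libraries are set against the mean of the 3 Control libraries, and each Control library against the mean of the other 2. The 49 members lie between -0.10 and 0.05 in the Control libraries, A2ko at -0.15, A8ko at 0.35, and the C9ko libraries at 0.20 and 0.25.

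Held against the other Control libraries in the same way, the 49 members had medians of 0.05, -0.10 and 0.05 in Control 1, 2 and 3. The A2ko value of -0.15 lay below that range. Summed over the members, TPM was 2915, 2658 and 2844 in Control, 2501 for A2ko, 3486 for A8ko, and 3470 and 3591 for the C9ko libraries, so the 3 knockout libraries of A8ko and C9ko lay above the Control range and A2ko below it.

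Origin licensing is carried out here by ORC1 and ORC6, subunits of the origin recognition complex, and by the loaders CDC6 and CDT1. Positions are on GRCh38 from GENCODE release 29, and all members named with one are annotated as protein coding. ORC6 (ENSG00000091651, chromosome 16, 46689643 to 46698394) measured 45.7, 42.4 and 51.4 TPM in the Control libraries, against 48.8 for A2ko, 62.0 for A8ko and 57.4 and 62.2 for C9ko. A2ko lay inside the Control range, and A8ko and both C9ko libraries lay above it. In C9ko the log2 difference of ORC6 was 0.36 (SE 0.09) with a limma adjusted p of 0.0276, and it was 0.41 in A8ko. All 4 licensing genes were above every Control library in A8ko, with a median of 0.32, and 3 of 4 were below in A2ko, with a median of -0.18. Over all tested genes 46.9% lay above in A8ko and 26.3% below in A2ko. ORC1, CDC6 and CDT1 were not called in C9ko, where they stood between 0.09 and 0.17.

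The MCM helicase is a ring of the 6 subunits MCM2 to MCM7, which work in equal numbers. MCM7 (ENSG00000166508, chromosome 7, 100092728 to 100101940), the most abundant, was at 219, 208 and 228 TPM in Control, 189 for A2ko, 280 for A8ko, and 287 and 272 for the C9ko libraries. No knockout library overlapped the Control range: A2ko lay below it and the others above, and the C9ko difference was 0.35 (SE 0.07, limma adjusted p of 0.00858). MCM4 (ENSG00000104738, chromosome 8, 47960185 to 47978160) measured 120, 120 and 121 TPM in the Control libraries, against 85.1 for A2ko, 153 for A8ko and 135 and 131 for C9ko. Its Control libraries lay closer together than those of the other subunits, with an SD of 0.607 TPM (n = 3), and A2ko stood at -0.49. MCM4 was not called in C9ko, where its difference was 0.15 with a limma adjusted p of 0.0899. All 6 subunits were above every Control library in A8ko, with differences from 0.20 for MCM6 to 0.42 for MCM5, and 5 of 6 were below in A2ko. The shares over all tested genes were 46.9% above in A8ko and 26.3% below in A2ko. By limma, MCM2, MCM3 and MCM7 rose in C9ko (differences of 0.40, 0.31 and 0.35), while MCM4, MCM5 and MCM6 were not called.

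**Figure D2:**
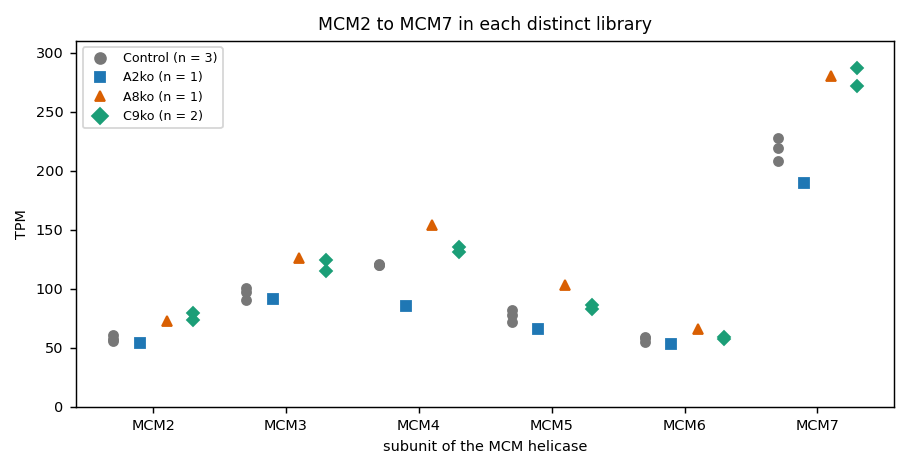
TPM (y axis, from 0) of the 6 MCM subunits in each distinct library, 1 point per library. MCM7 is at 208 to 228 TPM in Control, 189 in A2ko, 280 in A8ko and 272 to 287 in C9ko, and MCM4 is lowest in A2ko at 85.1 TPM.

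Added together, the 6 subunits gave 632, 600 and 646 TPM in Control, 538 for A2ko, 801 for A8ko, and 758 and 743 for the C9ko libraries. Within that sum MCM7 made up 34.7%, 34.6% and 35.2% in Control, 35.2% for A2ko, 35.0% for A8ko, and 37.8% and 36.6% for the C9ko libraries, so only the C9ko libraries lay above the Control range by over 1 percentage point. The share of MCM4 was 18.68% to 20.01% in Control and 15.8% in A2ko. The share of MCM6 was 9.07% to 9.23% in Control, 9.79% for A2ko, 8.23% for A8ko, and 7.82% and 7.66% for the C9ko libraries. A share does not depend on the scaling of a library.

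Helicase activation needs CDC45, the 4 GINS subunits and MCM10. CDC45 (ENSG00000093009, chromosome 22, 19479459 to 19520612) was at 52.2, 47.1 and 51.4 TPM in Control, 42.0 for A2ko, 76.5 for A8ko, and 63.8 and 67.0 for the C9ko libraries. A8ko was the highest library and A2ko the lowest, and the differences were 0.60 and -0.25. In C9ko CDC45 rose by 0.38 (SE 0.07, limma adjusted p of 0.00840). GINS1 (ENSG00000101003, chromosome 20, 25407727 to 25452628) measured 28.2, 25.9 and 24.3 TPM in the Control libraries, against 24.6 for A2ko, 30.5 for A8ko and 37.4 and 45.1 for C9ko. It was highest in C9ko, where it rose by 0.64 (SE 0.10, limma adjusted p of 0.00445). With no filter on low values its limma adjusted p was 0.0579. Of the other GINS subunits in C9ko, GINS2 stood at 0.09, GINS3 at 0.28 and GINS4 at -0.08, none of them called. GINS4 was at 10.6 and 17.2 TPM in the C9ko libraries, below and above the Control range of 13.4 to 15.6 TPM. MCM10 rose by 0.31 in C9ko, with a limma adjusted p of 0.0430, and stood at 0.54 in A8ko.

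Primase and the polymerases start and extend the new strands. POLA2 (ENSG00000014138, chromosome 11, 65261762 to 65305589), the second subunit of DNA polymerase alpha, was at 58.0, 51.5 and 52.2 TPM in Control, 46.8 for A2ko, 69.8 for A8ko, and 56.7 and 58.2 for the C9ko libraries. A2ko lay below and A8ko above the Control range, and C9ko overlapped it. PRIM1 (ENSG00000198056, chromosome 12, 56731596 to 56752373), the catalytic primase subunit, measured 34.7, 31.6 and 36.5 TPM in the Control libraries, against 27.6 for A2ko, 51.3 for A8ko and 43.7 and 42.9 for C9ko. Its groups did not overlap, with differences of -0.30, 0.57 and 0.33, the last with an SE of 0.08 and a limma adjusted p of 0.0191. Exons of PRIM1 overlap those of NACA on the same strand, a gene at up to 676 TPM, so its value depends on how reads were divided. PRIM2, the large primase subunit, stood at -0.44 and 0.38 in A2ko and A8ko and rose by 0.24 in C9ko (limma adjusted p of 0.0271). All 7 genes of the group were above every Control library in A8ko and 6 of 7 below in A2ko, POLE at 0.05 being the exception. Over all tested genes 46.9% lay above in A8ko and 26.3% below in A2ko. In C9ko the primase pair was called and the polymerase subunits POLA1, POLA2, POLD1, POLE and POLE2 were not, with differences between -0.14 and 0.23.

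PCNA, the ring that holds polymerases on DNA, had the highest level of the 49 members in Control and the highest difference in C9ko. PCNA (ENSG00000132646, chromosome 20, 5114953 to 5126626) was at 333, 270 and 282 TPM in Control, 248 for A2ko, 304 for A8ko, and 484 and 534 for the C9ko libraries. Both C9ko libraries lay far above all others, A8ko lay inside the Control range and A2ko below it. In C9ko PCNA rose by 0.79 (SE 0.10, limma adjusted p of 0.00182), a TPM 72.6% above the Control mean. The A8ko difference was 0.05, and it turned to -0.05 with the median of ratios. The loader subunits RFC2 to RFC5, which open and place the clamp, stood between -0.25 and -0.07 in A2ko, 0.14 and 0.34 in A8ko, and 0.08 and 0.20 in C9ko. All 5 genes of the group lay below every Control library in A2ko, against 26.3% of all tested genes. RFC3 was the only loader subunit called in C9ko, with a limma adjusted p of 0.0478.

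Okazaki fragments are trimmed by FEN1 and joined by LIG1. FEN1 (ENSG00000168496, chromosome 11, 61792637 to 61797244) measured 69.7, 61.6 and 71.1 TPM in the Control libraries, against 67.8 for A2ko, 91.1 for A8ko and 77.8 and 89.6 for C9ko. A2ko lay within the Control range and the other knockout libraries above it, and FEN1 rose by 0.31 in C9ko (SE 0.09, limma adjusted p of 0.0477). Its exons overlap FADS2 on the same strand. LIG1 was above every Control library in A2ko (0.27) and in A8ko (0.22) and was not called in C9ko (0.11).

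At the fork, RPA coats single strands, CLSPN and TIPIN pass the stalling signal to the checkpoint, EXO1 resects DNA and DTL targets CDT1 for destruction. RPA3 (ENSG00000106399, chromosome 7, 7636518 to 7718607) was at 74.1, 67.9 and 59.9 TPM in Control, 82.6 for A2ko, 62.6 for A8ko, and 63.6 and 89.7 for the C9ko libraries. The C9ko libraries disagreed with each other more than the Control libraries did, and RPA3 was not called. CLSPN (ENSG00000092853, chromosome 1, 35720218 to 35769967) measured 7.83, 7.31 and 7.47 TPM in the Control libraries, against 8.51 for A2ko, 11.8 for A8ko and 12.1 and 10.9 for C9ko. All knockout libraries lay above Control, A2ko by 0.16 and A8ko by 0.58, and in C9ko CLSPN rose by 0.55 (SE 0.08, limma adjusted p of 0.00370). With the median of ratios the A2ko difference of CLSPN was 0.04. EXO1 and DTL rose in C9ko by 0.29 and 0.31, with limma adjusted p-values of 0.0449 and 0.0283. RPA2 and TIPIN were not called, at 0.05 and -0.03. The median of the 6 genes in A2ko was 0.04, which turned to -0.09 with the median of ratios.

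Of the nucleotide supply genes, RRM2 and TYMS were high in A8ko and C9ko, and RRM2 had the largest A8ko difference of the 49 members. RRM2 (ENSG00000171848, chromosome 2, 10120698 to 10131419), the regulated subunit of ribonucleotide reductase, was at 121, 108 and 119 TPM in Control, 100 for A2ko, 200 for A8ko, and 172 and 189 for the C9ko libraries. It was 72.9% above the Control mean in A8ko, a difference of 0.79, and it rose by 0.64 in C9ko (SE 0.08, limma adjusted p of 0.00128). A2ko, at -0.21, lay below every Control library. TYMS (ENSG00000176890, chromosome 18, 657604 to 673578), which makes thymidylate, measured 148, 125 and 139 TPM in the Control libraries, against 117 for A2ko, 218 for A8ko and 210 and 189 for C9ko. The order of the groups was that of RRM2, with differences of -0.22 and 0.66, and TYMS rose by 0.54 in C9ko (SE 0.09, limma adjusted p of 0.00519, and 0.0601 with no filter). Exons of TYMS overlap TYMSOS and ENOSF1 on the opposite strand. TK1 (ENSG00000167900, chromosome 17, 78174075 to 78187233), the thymidine kinase of S phase, was at 186, 173 and 175 TPM in Control, 147 for A2ko, 213 for A8ko, and 191 and 199 for the C9ko libraries. Its C9ko difference of 0.13 was not called.

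The remaining pair of this group, chosen for description after their values were seen, went another way in A8ko. RRM1, the large subunit of ribonucleotide reductase, measured 105, 99.6 and 105 TPM in the Control libraries, against 87.7 for A2ko, 89.2 for A8ko and 117 and 118 for C9ko. DUT, which removes dUTP, was at 124, 109 and 117 TPM in Control, 110 for A2ko, 100.4 for A8ko, and 157 and 148 for the C9ko libraries. Both were below every Control library in A8ko, each at -0.21, whereas RRM2 and TYMS were above. In C9ko DUT rose by 0.38 (limma adjusted p of 0.00919) and RRM1 stood at 0.18 (0.0599, not called).

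The drivers of the G1/S step are the cyclins CCNE1 and CCNE2, which activate CDK2, and the transcription factors E2F1 and E2F2. E2F1 (ENSG00000101412, chromosome 20, 33675683 to 33686404) measured 23.9, 22.5 and 25.5 TPM in the Control libraries, against 24.4 for A2ko, 34.3 for A8ko and 32.2 and 31.1 for C9ko. A2ko lay inside the Control range, A8ko stood at 0.50, and in C9ko E2F1 rose by 0.39 (SE 0.08, limma adjusted p of 0.00990). CCNE1 (ENSG00000105173, chromosome 19, 29811898 to 29824308) was at 9.72, 9.35 and 10.1 TPM in Control, 11.3 for A2ko, 16.1 for A8ko, and 12.7 and 11.8 for the C9ko libraries. All knockout libraries lay above Control, with A8ko highest at 0.67, and CCNE1 rose by 0.31 in C9ko (SE 0.08, limma adjusted p of 0.0248). In A2ko the CCNE1 difference of 0.20 became 0.08 with the median of ratios. CCNE2 stood at 0.14, 0.51 and 0.17 and was not called. E2F2, the member with the lowest level, went the other way in A8ko and C9ko: it measured 3.96, 3.77 and 3.63 TPM in the Control libraries, against 4.19 for A2ko, 3.02 for A8ko and 3.36 and 3.02 for C9ko. E2F2 was not called, with a difference of -0.19 in C9ko and a limma adjusted p of 0.207.

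Behind the fork, CHAF1A and CHAF1B deposit histones, UHRF1 reads half-methylated DNA, and SLBP binds histone mRNA. SLBP (ENSG00000163950, chromosome 4, 1692800 to 1712555) was at 58.5, 51.5 and 58.5 TPM in Control, 52.8 for A2ko, 75.3 for A8ko, and 61.0 and 67.1 for the C9ko libraries. CHAF1B (ENSG00000159259, chromosome 21, 36385378 to 36419015) measured 17.6, 17.4 and 18.3 TPM in the Control libraries, against 16.8 for A2ko, 25.6 for A8ko and 19.1 and 21.3 for C9ko. All 4 genes of the group lay above every Control library in A8ko and both C9ko libraries, against 46.9% and 41.1% of all tested genes. Even so, limma called none of the 4 in C9ko, where their differences were 0.18 to 0.24. With the median of ratios 0 of the 4 lay above every Control library in C9ko, and their median was 0.07. Exons of CHAF1B overlap MORC3 on the same strand. CHAF1B stood at 0.51 in A8ko, the largest difference of the group.

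**Figure D3:**
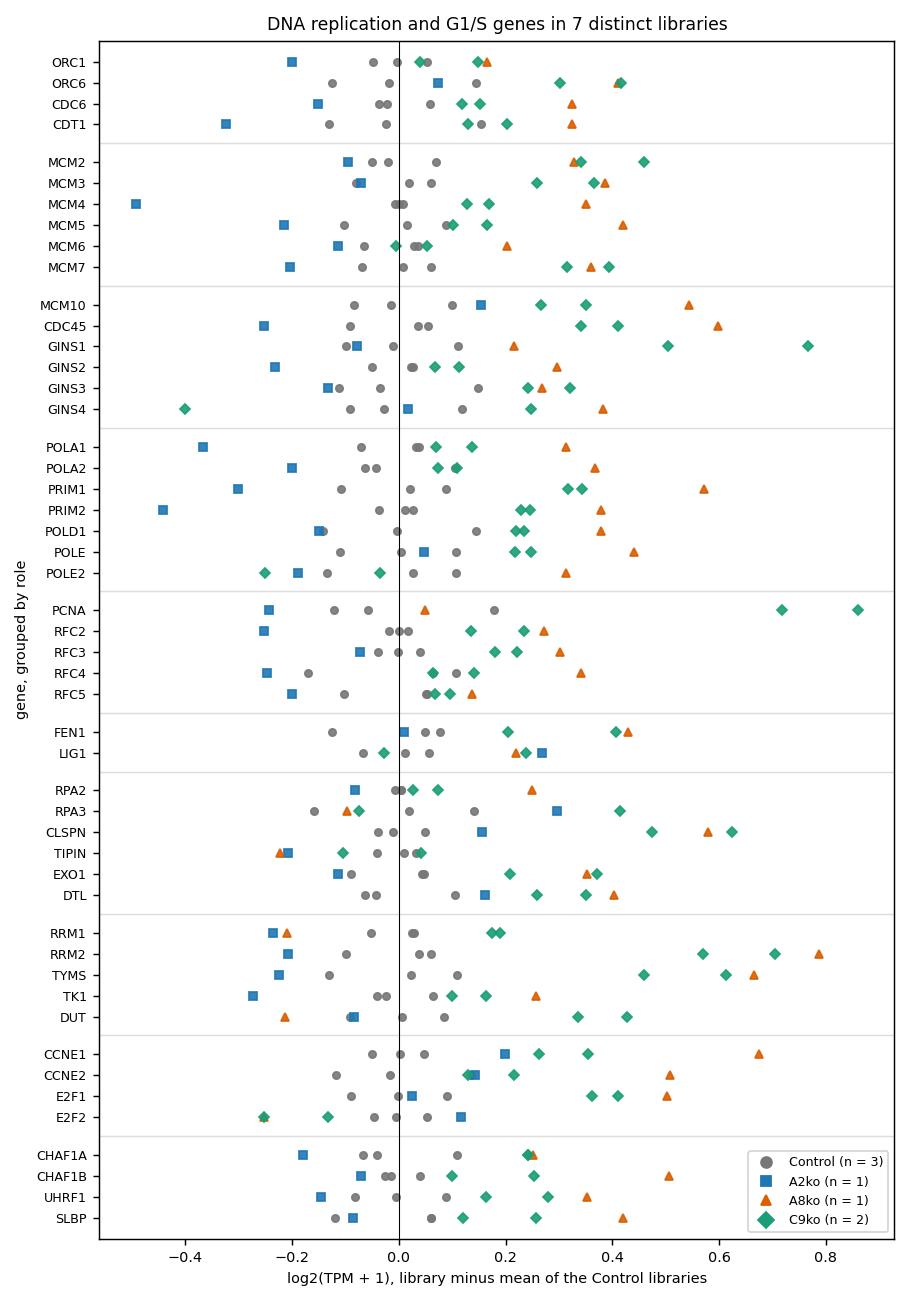
Log2(TPM + 1) difference from the Control mean for the 49 members, grouped by role, 1 mark per distinct library. A2ko marks lie mostly left of 0 (36 of 49 negative), A8ko marks mostly right (44 of 49 positive), and the largest C9ko difference is that of PCNA, at 0.79.

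Genes of the same pathways outside the 49 members were read from lists of 35 other replication factors, 31 other regulators of the G1/S step and 26 genes of mitosis and G2/M. The 35 other replication factors had medians of -0.07 in A2ko, 0.24 in A8ko and 0.18 in C9ko, where 7 rose and none fell by limma, with 0 lower at an unadjusted p under 0.05. That is a smaller share than the 22.0% of all tested genes called higher, and with the median of ratios 4 rose and 2 fell. DONSON, a factor of helicase assembly at origins, was at 27.3, 26.5 and 25.0 TPM in Control, 30.8 for A2ko, 43.8 for A8ko, and 35.5 and 36.7 for the C9ko libraries, and it rose by 0.45 (limma adjusted p of 0.00338). ATRIP, the partner of the checkpoint kinase ATR, measured 6.96 to 7.60 TPM in the Control libraries, against 7.77 for A2ko, 8.99 for A8ko and 11.7 and 13.1 for C9ko, and it rose by 0.69 (limma adjusted p of 0.00165). ATRIP lies on chromosome 3, and the other tested genes within 5 Mb had a C9ko median of 0.88, above its own difference.

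Among the 30 of 31 G1/S regulators that were tested, the medians were -0.09, 0.25 and 0.27, and in C9ko 16 rose and 1, CDK6, fell, against 22.0% and 7.42% of all tested genes. With the median of ratios 10 rose and 2 fell, against 15.4% of all tested genes called higher. CCND2, a D-type cyclin that activates CDK4 and CDK6, was at 1.15, 0.851 and 0.891 TPM in Control, 0.111 for A2ko, 15.2 for A8ko, and 19.8 and 22.1 for the C9ko libraries. The difference was 3.05 in A8ko and 3.48 in C9ko (SE 0.12, limma adjusted p of 1.22e-05), far larger than that of any of the 49 members. CDC25A, the phosphatase that activates CDK2, measured 7.79, 8.13 and 8.02 TPM in the Control libraries, against 7.48 for A2ko, 13.2 for A8ko and 22.6 and 22.3 for C9ko, and it rose by 1.38 (SE 0.07, limma adjusted p of 4.03e-05). The other tested genes within 5 Mb of CDC25A, on chromosome 3, had a C9ko median of 0.88. The next pair was chosen after the values were seen. The D-type cyclin CCND1 was at 93.0, 89.7 and 92.3 TPM in Control, 71.2 for A2ko, 144 for A8ko, and 156 and 166 for the C9ko libraries. CDKN1A, the inhibitor p21, measured 32.9, 31.8 and 30.9 TPM in the Control libraries, against 54.8 for A2ko, 35.4 for A8ko and 36.0 and 40.7 for C9ko. CCND1 was thus low in A2ko and high in A8ko and C9ko, while CDKN1A was highest in A2ko. CDKN1A also lay above every Control library in A8ko (0.15) and rose in C9ko by 0.26 (limma adjusted p of 0.0430). With the median of ratios it was not called. The other tested CDK inhibitors were split in A2ko. CDKN1B (0.34) and CDKN2B (0.20) lay above every Control library, CDKN2C (-0.09) and CDKN2D (-0.22) below, and CDKN2A overlapped Control.

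**Figure D4:**
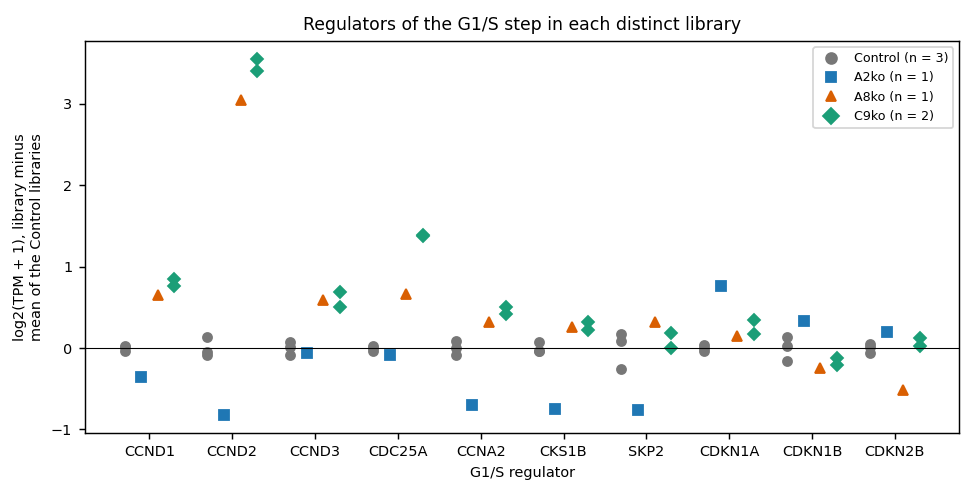
Log2(TPM + 1) of 10 regulators of the G1/S step in each distinct library, minus the mean of the 3 Control libraries (y axis). CCND2 and CDC25A were named by the rule and the other 8 were chosen after their values were seen. The tested CDK inhibitors CDKN2A, CDKN2C and CDKN2D are not shown, of which CDKN2C and CDKN2D lay below every Control library in A2ko. CCND2 stands at -0.82 in A2ko and above 3 in A8ko and C9ko, and CDKN1A is highest in A2ko at 0.76.

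The 26 genes of mitosis and G2/M had medians of -0.55 in A2ko, 0.33 in A8ko and 0.30 in C9ko. In A2ko all 26 lay below every Control library and 14 were past the fold, against 26.3% and 6.26% of all tested genes, whereas none of the 49 replication genes was past the fold there. In C9ko 18 of the 26 rose and none fell by limma, with 0 lower at an unadjusted p under 0.05, against 22.0% and 7.42% of all tested genes. With the median of ratios 9 rose, against 15.4%. CCNB2, a mitotic cyclin, was at 136, 125 and 127 TPM in Control, 66.7 for A2ko, 104 for A8ko, and 153 and 183 for the C9ko libraries. CDC20, an activator of the anaphase-promoting complex, measured 399.8, 350.1 and 371 TPM in the Control libraries, against 199.7 for A2ko, 483 for A8ko and 457 and 481 for C9ko. Both were near 1 log2 unit lower in A2ko, at -0.94 and -0.90, and CCNB2 was also below every Control library in A8ko, at -0.31. CCNB2 lies on chromosome 15, and the other tested genes within 5 Mb had an A8ko median of -0.32.

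The position of a member along its chromosome was read against its neighbours, as the median difference of the other tested genes within 5 Mb of its start. In A8ko the neighbours of DUT (-0.33, chromosome 15), RRM1 (-0.27, chromosome 11) and TIPIN (-0.23, chromosome 15) had the only negative medians among the 49 members, and these 3 genes stood at -0.21, -0.21 and -0.22 themselves. Over the 511 tested genes of chromosome 15 the A8ko median was -0.27. E2F2 and RPA3, the other members negative in A8ko, had neighbours at 0.08 and 0.23. The highest A8ko neighbour median among the 49 members was that of RRM2, at 0.30, beside its own difference of 0.79. In C9ko the highest neighbour medians were those of PCNA (0.44) and GINS1 (0.42), both on chromosome 20, followed by RRM2 (0.33). E2F1, also on chromosome 20, had neighbours at 0.13. Relative to their neighbours the 49 members had medians of -0.27 in A2ko, 0.22 in A8ko and 0.08 in C9ko. DNA copy number was not measured here, and its part in these values was not tested.

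**Figure D5:**
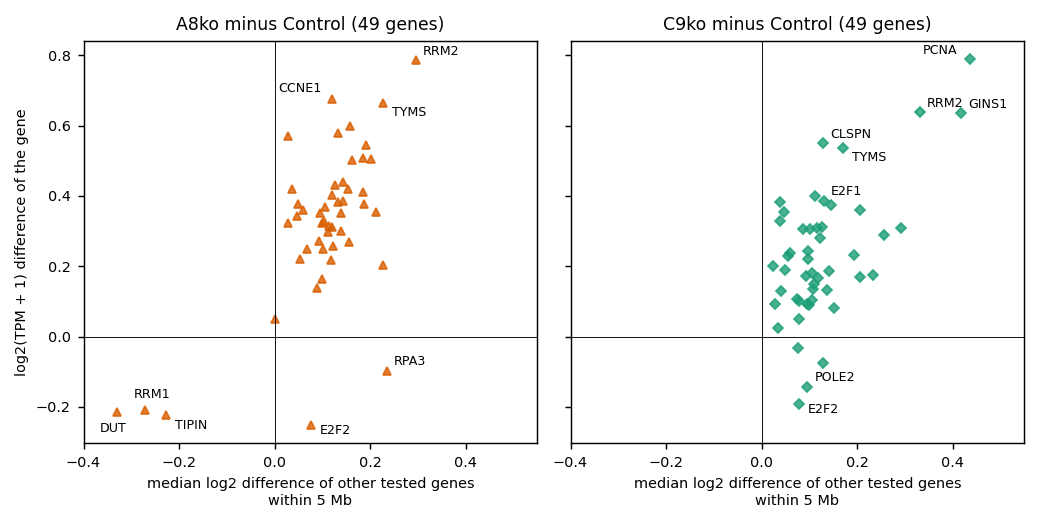
Log2(TPM + 1) difference of each of the 49 members from Control (y axis) against the median difference of the other tested genes within 5 Mb (x axis), for A8ko (left) and C9ko (right). DUT, RRM1 and TIPIN lie at the lower left in A8ko, with neighbours at -0.33 to -0.23, and PCNA and GINS1 lie at the upper right in C9ko, with neighbours at 0.44 and 0.42.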

How the data were processed

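The deposited files hold TPM per Ensembl gene identifier, computed by the authors; per the submitters' processing notes the build was hg38. The aligner, quantifier and annotation are not given in the sources used here. Per the labels, libraries were made by a dUTP strand-specific method from 2 ug of total RNA. TPM in A2ko summed to 129.8 above the nominal total, and in the other libraries to within 0.003 of it. Symbols were found for 61463 of the 78894 identifiers, and positions came from GENCODE release 29 on GRCh38 for 57342. Identical files were merged, which left 7 distinct libraries. Values were analysed as log2(TPM + 1) for genes that reached 1 TPM in 2 or more libraries. The C9ko contrast was fitted on all 4 groups by limma 3.58.1 (lmFit, eBayes with trend, R 4.3.3), with Benjamini-Hochberg adjustment. It was also run on simulated libraries in which the changed genes differed by 1 log2 unit. That is more than any member differed, so the run does not cover differences as small as theirs. A2ko and A8ko were described by counts only.

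The members and lists were chosen with earlier results of these data known. Named within each role were the member with the highest Control TPM, the one with the largest difference in any knockout and every member called in C9ko with a difference of at least 0.5; in each other list, the 2 with the largest difference. Alternatives covered the pseudocount, the filter, the scaling, left-out libraries, the replicate block, the samples in the fit, the trend, the fold, chromosomes and, added after seeing the data, the neighbouring genes.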

Additional observations from a re-analysis of the deposited data

Results flagged for a closer look

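A2ko and the other knockouts moved to opposite sides of Control in the values below, with every library of a knockout on its own side. These differences were not tested, since A2ko and A8ko are 1 distinct library each. The median over the 49 members was 0.50 log2 units higher in A8ko than in A2ko, and 0.35 higher in C9ko than in A2ko. PCNA, the sliding clamp, was 1.03 higher in C9ko than in A2ko. RRM2, the regulated subunit of ribonucleotide reductase, was 0.99 higher in A8ko than in A2ko and 0.85 higher in C9ko. TYMS, which makes thymidylate, was 0.89 higher in A8ko and 0.76 higher in C9ko. Of the other members past the fold in A8ko, PRIM1 was 0.87 higher in A8ko than in A2ko, CDC45 0.85 higher and CHAF1B 0.58 higher. The remaining 5 members past the fold in A8ko were not on opposite sides: MCM10, CLSPN, CCNE1 and CCNE2 lay above every Control library in A2ko too, and E2F1 overlapped Control there. With the median of ratios the A2ko differences of MCM10, CLSPN, CCNE1 and CCNE2 were only 0.04, 0.04, 0.08 and 0.02.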

How the results depend on the processing

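No called member and no median over the 49 members changed sign in any alternative. The counts of members called or past the fold lower stayed at 0, except that the median of ratios put 2 members past the fold lower in A2ko. Of 49 members, 20 were called higher in C9ko. That count was 10 with no filter, 11 with the median of ratios, 13 without mitochondrial transcripts, 13 without trend, and 5 at a difference of at least 0.5. It ran from 9 to 15 with 1 library left out, 9 without either C9ko library and 12 without Control 2. A fit with 1 C9ko library assumes that it varies like the Control libraries, which alone then give the spread. RRM2, PCNA, CLSPN and MCM2 were called in every refit, the minimum difference of 0.5 aside, at which MCM2 was not counted. With a replicate block on the shared numbers 8 were called. The deviations of same-numbered Control and C9ko libraries correlated at -0.05 and -0.01. With only 2 C9ko libraries their deviations mirror each other, so these values cannot decide whether the numbers pair the samples. The 10 members past the fold in A8ko became 3 with the median of ratios, 6 without mitochondrial transcripts and 0 at a fold of 1 log2 unit, and 7 to 10 with 1 Control library left out. The 5 in C9ko became 3, 3 and 0 under those settings, 3 to 5 with 1 library left out (3 without C9ko 1), and 3 without members on chromosomes 3, 9 and 20. The medians of -0.15, 0.35 and 0.20 in A2ko, A8ko and C9ko became -0.27, 0.25 and 0.0708 with the median of ratios, and -0.27, 0.22 and 0.0800 relative to genes within 5 Mb. Without mitochondrial transcripts those of A8ko and C9ko were 0.28 and 0.10. With 1 library left out they ran from -0.19 to -0.13, 0.31 to 0.36 and 0.18 to 0.25. The median of ratios also moved the share of higher among all calls in C9ko from 74.8% to 54.6%. The C9ko differences of 13 members that were not called changed sign in at least 1 alternative. With the median of ratios these were ORC1 (-0.0304), MCM6 (-0.106), GINS2 (-0.0388), POLA1 (-0.0219), POLA2 (-0.0387), RFC4 (-0.0290), RFC5 (-0.0484), LIG1 (-0.0234), RPA2 (-0.0811) and TK1 (-0.00105). Without mitochondrial transcripts they were ORC1 (-0.000346), MCM6 (-0.0749), GINS2 (-0.00760), POLA2 (-0.00719), RFC5 (-0.0170) and RPA2 (-0.0496). With 1 library left out the value ran from -0.00837 to 0.0535 for MCM6, from -0.3998 to 0.248 for GINS4, from -0.0276 to 0.239 for LIG1, from -0.0750 to 0.414 for RPA3 and from -0.105 to 0.0421 for TIPIN. The extremes came without C9ko 1 or 2, except that MCM6 was lowest without Control 2. The cause of these shifts was not tested. TPM keeps no depth, which sets no limit that could be computed here.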
